A study of Mus musculus with 16 samples.

Results

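The comparison described here sets MHC-IIHi macrophages sorted from the heart against Ly6cHi monocytes sorted from blood, and it rests on 8 of the 16 arrays of the series, 4 for each population. The 8 arrays were chosen by their own labels. Each sample, from untreated C57BL/6 mice, had its RNA read on 1 Agilent mouse array in a single colour. MHC-IIHi macrophages were live, DAPI-negative cells from minced and digested hearts that carried CD45, MerTK and CD64, lacked Ly6c and CCR2, and were high for MHCII and low for CD11c. The other heart macrophages of the series, used below only where a difference is at issue, were CCR2+ macrophages, high for CCR2 and MHCII, and MHC-IIlo macrophages, negative for CCR2 and CD11c and low for MHCII. The gate and the preparation of the blood monocytes, the age and sex of the mice and whether replicates came from separate mice are not given in the labels. P-values therefore measure the spread between these samples, which may be technical. The values come from the scanner files under their own labels, because in the separate table of processed values 0 of 16 columns matched the array of their own label best and 12 matched an array of another population. Each sorted sample gave 1 ng of RNA for labelling. The 4 replicate numbers are the 4 slides, each with 1 array of every population at a fixed position, so that slide position and population cannot be told apart. Tissue and cell type cannot be told apart either, since the macrophages came only from digested heart and the monocytes only from blood.

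Ly6c-high monocytes are short-lived white cells that leave the bone marrow under the control of CCR2 and can enter tissues and become macrophages. Heart macrophages take up dying cells and debris, make complement and growth factors, and, where they carry MHCII, show peptides to helper T cells. An MHCII molecule is a pair of alpha and beta chains that is built around the invariant chain Cd74 and loaded with peptide by H2-DM. The factor Ciita switches the genes of the chains on together through short boxes of DNA just upstream of each gene, among them an X2 box and a Y box.

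The promoters of 4 MHCII genes whose transcripts were higher in the macrophages are shown because their chains or loading factors carry the comparison of MHCII transcripts and their promoters hold both motifs described here. Each line holds bases 150 to 1 before the annotated gene start on the gene's own strand, 5′ to 3′, from RefSeq on build GRCm38.p6. The regions are H2-Aa at chr17:34287824-34287973 on the minus strand, H2-Eb1 at chr17:34305717-34305866, H2-Ob at chr17:34238755-34238904 and H2-DMb1 at chr17:34153041-34153190 on the plus strand. Capitals mark every match to the letters ATTGG of the Y box core and TGATG of the X2 box core, on either strand. Not every match need be the box itself, as H2-Eb1 holds several of each.
H2-Aa: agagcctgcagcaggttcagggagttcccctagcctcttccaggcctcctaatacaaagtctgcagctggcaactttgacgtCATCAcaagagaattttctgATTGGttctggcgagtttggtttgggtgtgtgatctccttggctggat
H2-Eb1: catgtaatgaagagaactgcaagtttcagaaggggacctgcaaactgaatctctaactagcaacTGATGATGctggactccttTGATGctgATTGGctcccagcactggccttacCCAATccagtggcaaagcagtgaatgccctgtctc
H2-Ob: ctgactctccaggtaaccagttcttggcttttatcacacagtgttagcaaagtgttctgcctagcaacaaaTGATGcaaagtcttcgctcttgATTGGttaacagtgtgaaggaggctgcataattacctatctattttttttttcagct
H2-DMb1: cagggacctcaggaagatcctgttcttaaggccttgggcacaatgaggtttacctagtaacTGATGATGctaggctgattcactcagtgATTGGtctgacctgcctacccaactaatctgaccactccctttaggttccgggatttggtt

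Of 32851 promoters in the RefSeq table, 24.5% held ATTGG within these 150 bases, 22.3% held TGATG and 5.49% held both. Of the 9 promoters of MHCII chain genes in it, from 8 genes, 7 held ATTGG, 7 held TGATG and 6 held both (66.7%). Both motifs were also in the promoters of H2-Eb2 and H2-DMb2, which were not called. Neither of the 2 promoters of H2-DMa, which was called higher, held both, though a promoter of this gene held TGATG alone. H2-Ab1 had no promoter among the 9. Matches on either strand were counted for each motif separately, also where they overlapped. A match is a description of the letters and not of binding.

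Levels below are log2 signals relative to the 75th percentile of the same array, so that 0 is a bright spot's level and each unit is a doubling. Levels of different genes cannot be set against each other, because each probe has its own brightness. Differences are MHC-IIHi minus Ly6cHi on that scale, given ± SE, with n = 4 arrays in each group. Adjusted p-values are from limma and the Benjamini-Hochberg procedure over all 21897 genes tested, and "called" means an adjusted p under 0.05. The scanner software calls each spot well above background or not, and "background limit" below means that call. Where every probe of a gene stayed below the limit throughout a population, the size is given as "at least N-fold", and the bound itself was not tested. Between 58.1% and 69.3% of spots were well above background on the macrophage arrays and between 52.8% and 60.1% on the monocyte arrays.

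Of the 21897 genes, 4686 were called (21.4%), 2199 higher in MHC-IIHi macrophages (10%) and 2487 lower (11.4%). With the replicate as a block 6954 were called, of which 3979 were lower, and 4681 of the 4686 were among them. With normexp background correction the calls split into 1539 higher and 2782 lower. The median difference over all genes was -0.05, and it was -0.15 with median scaling and -0.21 with normexp, so a small difference is read against that shift. Past a 2-fold difference 647 genes were higher (2.95%) and 306 lower (1.40%). A further view needs no fold, since 403 genes were well above background on all 4 macrophage arrays and on none of the 4 monocyte arrays, and 49 the other way round. A limit from negative controls gave 119 and 26. Such counts can move with the brightness of the arrays. The 75th percentile signal was 941 to 1660 on the macrophage arrays and 819 to 996 on the monocyte arrays. Without MHC-IIHi replicate 3, the dimmest macrophage array by that measure, the first count was 623. The part of array brightness in these counts was not tested. The groups did not overlap for 4143 of the called genes, against 4947 of all genes tested (22.6%). A large share of the transcriptome was of like level in both cells. The 95% interval of the difference lay wholly within 1 log2 unit of 0 for 8181 genes, and 209 of these were still called.

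**Figure D1:**
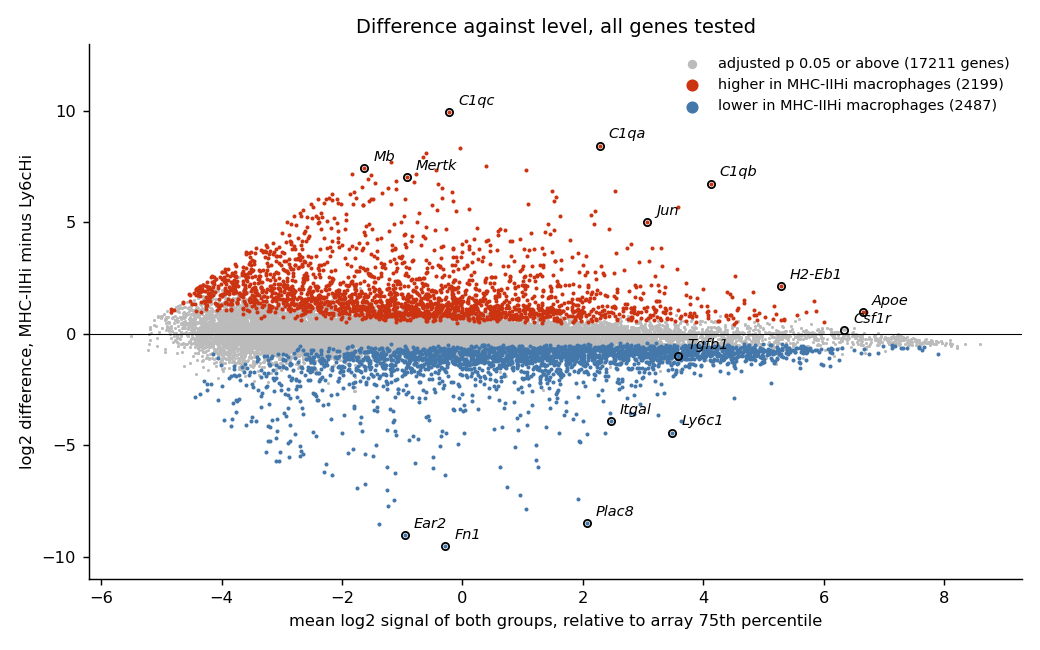
Difference between MHC-IIHi macrophages and Ly6cHi monocytes (log2, y axis) against the mean level of both populations (log2 relative to the array's 75th percentile, x axis) for 21897 genes. Red points are the 2199 genes called higher in the macrophages and blue points the 2487 called lower, with C1q genes and Mb at the upper edge and Fn1, Ear2 and Plac8 at the lower; plotted values are fitted differences, also for genes that the text gives as bounds.

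Of 10 genes that both cells are known to use, 4 were called, Adgre1 and Cd14 higher and Ptprc and Tyrobp lower, and 6 were not. Csf1r, the receptor for the growth factor CSF1 on which both depend, read 6.31, 6.37, 6.75 and 6.27 on the macrophage arrays of replicates 1 to 4 and 6.28, 6.06, 6.55 and 6.16 on the monocyte arrays. The groups overlapped, and the difference of 0.16 ± 0.18 was not called (adjusted p = 0.628). The same held for Cd68, a glycoprotein of lysosomes, at 0.16 ± 0.19 (adjusted p = 0.668), and for the Fc receptor chain Fcer1g at -0.25 ± 0.18 (adjusted p = 0.418). Csf1r and Cd68 were each called higher under 1 of 21 other settings (adjusted p = 0.0461 and 0.0341). Spi1, which encodes the myeloid master factor PU.1, differed by -0.46 ± 0.21 (adjusted p = 0.15, and 0.00975 in the blocked fit). Itgam, the CD11b integrin chain, was lower on all 4 macrophage arrays than on any monocyte array, yet its difference of -0.42 ± 0.18 was not called (adjusted p = 0.126, and 0.0472 in the blocked fit). Tyrobp, the adaptor DAP12, was called lower at -0.67 ± 0.17 (adjusted p = 0.0106), but not with normexp, with quantile normalization or in a fit to the 8 arrays only. Adgre1, which encodes the macrophage marker F4/80, was called higher at 1.84 ± 0.21 (adjusted p = 9.89e-06).

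The sort markers serve as a check of the labels. Mertk read 2.36, 2.55, 3.53 and 1.94 on the macrophage arrays and was below the background limit on each monocyte array, a difference of at least 53.1-fold (adjusted p = 6.91e-09). Ly6c1 read 1.56, 1.01, 1.16 and 1.33 in the macrophages and 5.95, 5.73, 5.72 and 5.44 in the monocytes, a difference of -4.44 ± 0.28 (adjusted p = 1.71e-08). Both followed their gates, although Ly6c1 was still well above background on all 4 macrophage arrays. Ccr2 followed too at -4.36 ± 0.33 (adjusted p = 9.71e-08) and was well above background on 3 of 4 macrophage arrays. Ptprc, which encodes CD45, was lower in the macrophages at -1.27 ± 0.19 (adjusted p = 0.000129), although their gate required the protein. Fcgr1, which encodes the CD64 of the macrophage gate, was at 2.71 to 3.17 in the macrophages and 2.46 to 2.98 in the monocytes. It did not separate them (0.25 ± 0.18, adjusted p = 0.413, and 0.0306 under 1 of 21 other settings). Itgax, which encodes CD11c, did not either (0.12 ± 0.55, adjusted p = 0.931). Of the 9 sort markers tested 4 were called higher, 3 lower and 2 in neither direction. The probe for Ly6c1 may also take the near-identical Ly6c2.

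**Figure D2:**
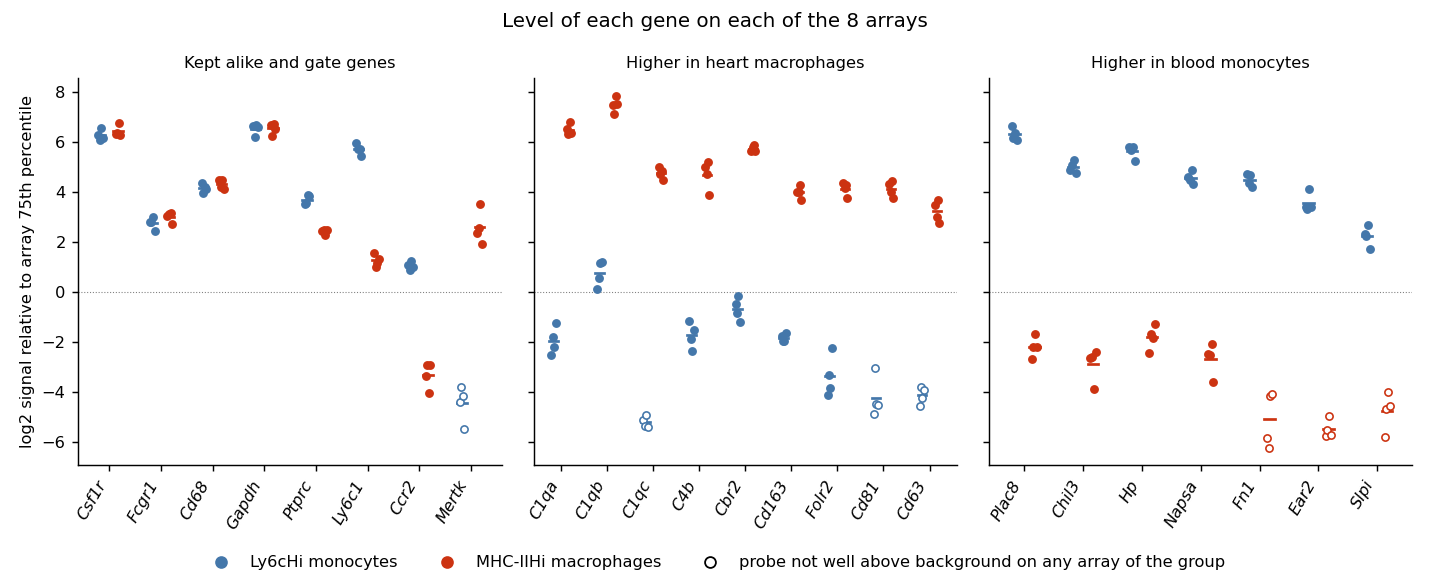
Level of 24 genes (log2 signal relative to the array's 75th percentile, y axis) on each of the 4 Ly6cHi monocyte arrays (blue) and 4 MHC-IIHi macrophage arrays (red), with a bar at each group mean; open circles mark a probe below the background limit throughout that group. Csf1r, Fcgr1, Cd68 and Gapdh lie together, C1q genes and Cd81 are high in the macrophages only, and Plac8, Chil3, Hp and Fn1 high in the monocytes only.

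MHC class II presentation differed by gene within the pathway. Of 17 genes 9 were called higher in the macrophages, 1 lower and 7 in neither direction, and the median difference was 0.63, against -0.05 over all genes. H2-Aa, the alpha chain of I-A, read 6.67, 6.28, 6.87 and 6.43 in the macrophages and 4.90, 5.06, 5.34 and 5.17 in the monocytes. The groups did not overlap, and the difference was 1.45 ± 0.26 (adjusted p = 0.000728). The beta chain H2-Ab1 differed by 1.86 ± 0.25 (adjusted p = 6.4e-05). H2-Eb1, the beta chain of I-E, read 6.34, 6.17, 6.68 and 6.21 against 3.82, 4.34, 4.50 and 4.25, the widest gap among these 3 genes (2.12 ± 0.23, adjusted p = 6.77e-06). The gate was itself set on MHCII protein, so these differences are not independent of the sort. Which of the 3 genes encode the protein that the gate read was not tested. The monocyte arrays also carried these 3 genes well above background on all 4 arrays.

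Chaperones of the pathway differed by less. The invariant chain Cd74 was higher by 0.97 ± 0.17 (adjusted p = 0.000719), and the peptide exchanger chains H2-DMb1 by 0.82 ± 0.21 (adjusted p = 0.00997, with a second probe at 0.09) and H2-DMa by 0.63 ± 0.21 (adjusted p = 0.0415). Neither H2-DM call held with median scaling, and that of H2-DMa was also lost without any of 6 of the 8 arrays. H2-Ob, a chain of the H2-DO molecule that holds H2-DM back, was higher by 1.35 ± 0.28 (adjusted p = 0.00208). Its partner H2-Oa was not called (-0.50 ± 0.53, adjusted p = 0.621), nor was Ciita, the switch of the pathway, at 4.25 to 4.78 in the macrophages and 3.92 to 4.44 in the monocytes (0.31 ± 0.20, adjusted p = 0.353). Ciita was called higher under 1 of 21 other settings (adjusted p = 0.0396). H2-Eb2 (-0.46 ± 0.43) and H2-DMb2 (-0.79 ± 0.40) were not called, though H2-DMb2 had an adjusted p of 0.0308 with the block. Enzymes that cut and unfold antigen went opposite ways. Lgmn, an asparagine-specific lysosomal protease, read 4.59, 4.10, 4.26 and 3.98 in the macrophages and 1.94, 1.99, 2.26 and 1.99 in the monocytes, a 4.56-fold difference (2.19 ± 0.19, adjusted p = 3.76e-07). Ifi30, the thiol reductase that opens disulfide bonds, was the 1 member called lower (-0.90 ± 0.23, adjusted p = 0.00906, and 0.0628 with quantile normalization), and Ctss, the protease that trims the invariant chain, was not called (-0.44 ± 0.18, adjusted p = 0.103, or 0.0126 with the block). Among the costimulators of T cells Cd86 stood out. Cd86 read 1.62, 0.87, 1.66 and 1.20 in the macrophages and -2.46, -2.23, -2.26 and -1.30 in the monocytes, a difference of 3.40 ± 0.29 (adjusted p = 4.85e-07). Cd80 (-0.06 ± 0.28) and Cd40 (-0.48 ± 0.28) were not called.

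**Figure D3:**
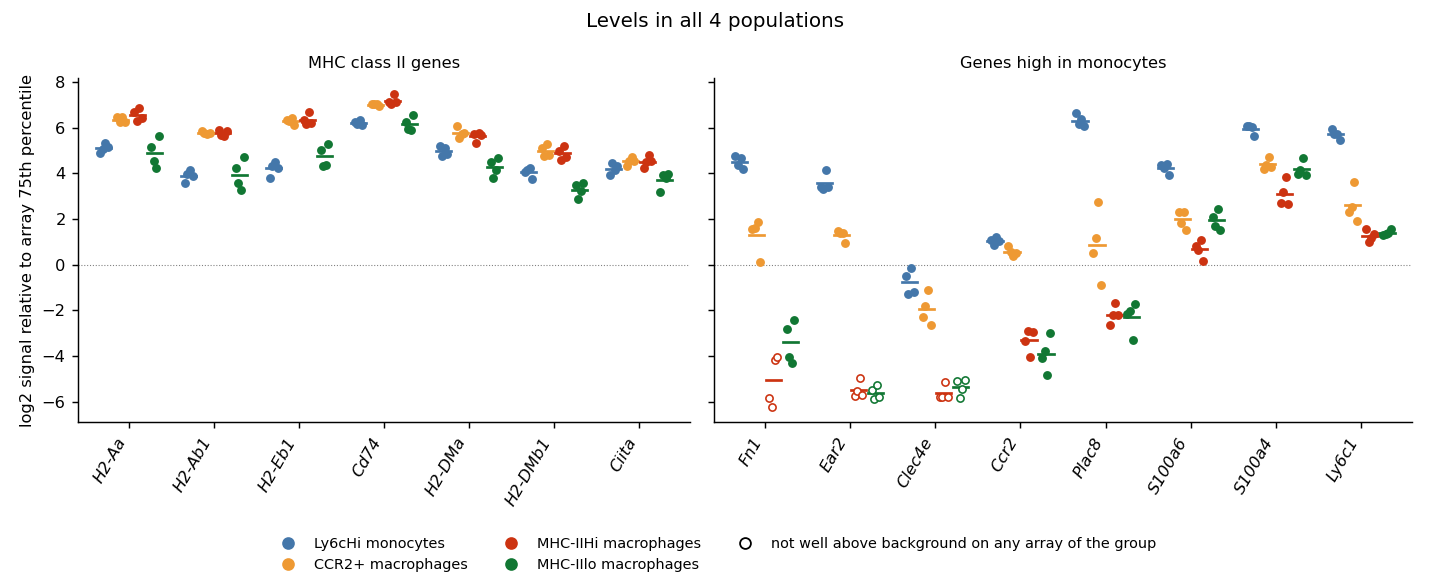
Level (log2 signal relative to the array's 75th percentile, y axis) of MHCII genes (left) and genes high in monocytes (right) on the 16 arrays, with blue for Ly6cHi monocytes, orange for CCR2+, red for MHC-IIHi and green for MHC-IIlo macrophages, bars for group means and open circles where the probe stayed below the background limit throughout the group. H2-Aa averages 6.35 in CCR2+ and 4.90 in MHC-IIlo macrophages, and Fn1, Ear2 and Clec4e are high in monocytes and CCR2+ macrophages.

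Set beside the other heart macrophages, the MHCII transcripts of MHC-IIHi macrophages lay with CCR2+ macrophages and above MHC-IIlo macrophages. H2-Aa read 6.45, 6.22, 6.46 and 6.26 in CCR2+ macrophages and 5.17, 4.53, 4.25 and 5.64 in MHC-IIlo macrophages. Against MHC-IIlo macrophages, where 15 genes were called in all (0.0685%), H2-Aa was higher by 1.67 ± 0.26 (adjusted p = 0.0215) and H2-DMb1 by 1.58 ± 0.21 (adjusted p = 0.017). Against the mean of the other macrophages H2-Aa was not called (0.94 ± 0.22, adjusted p = 0.257), nor was its difference from CCR2+ macrophages, a comparison in which 1.25% of genes were called (0.21 ± 0.26, adjusted p = 0.926). In MHC-IIlo macrophages the mean level of H2-Aa, 4.90, was close to that of the monocytes, with a difference of -0.22 on the same scale. These comparisons share arrays, and the gate was itself set on MHCII protein.

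Genes of resident macrophages were the most uniformly higher list. Of 27 tested, 26 were called higher, 0 lower and 1 in neither direction, with a median of 4.91, or 3.75 with genes that were dim in monocytes at their bound. The list was drawn up with the character of these cells in view and is not independent evidence of its direction. Folr2, a folate receptor, read 4.34, 4.18, 4.29 and 3.75 in the macrophages and -4.10, -3.31, -3.85 and -2.21 in the monocytes, where it was well above background on 1 array (7.51 ± 0.33, adjusted p = 2.51e-10). Stab1, a scavenger receptor for modified lipoproteins and dying cells, differed by 7.36 ± 0.25 (adjusted p = 2.85e-11). Cd163, the receptor that takes up haemoglobin bound to haptoglobin, read 3.99, 4.00, 4.30 and 3.67 against -1.76, -1.96, -1.95 and -1.63. Each of these probes separated the groups by several log2 units with no overlap, and Cd163 was measured on all 8 arrays (5.81 ± 0.22, adjusted p = 6.45e-11). Cbr2, a carbonyl reductase, was 84.3-fold higher (6.40 ± 0.23, adjusted p = 4.71e-11). Igf1, the insulin-like growth factor, differed by 7.17 ± 0.28 on its brightest probe (adjusted p = 9.52e-11), while its 5 probes ranged from 0.64 to 7.17. The member not called was F13a1, a subunit of coagulation factor XIII that monocytes make as well (0.57 ± 0.20, adjusted p = 0.061, and 0.0154 in the blocked fit).

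Complement, the cascade of blood proteins that marks targets for uptake, was higher in 15 of 22 genes tested, lower in 1 and not called in 6, with a median of 2.94 (2.17 with bounds). The recognition molecule C1q has 3 chains. C1qa read 6.53, 6.32, 6.79 and 6.35 in the macrophages and -2.52, -1.79, -2.21 and -1.24 in the monocytes. C1qb read 7.49, 7.10, 7.84 and 7.52 against 0.13, 0.55, 1.15 and 1.20, and C1qc read 4.98, 4.71, 4.84 and 4.49 and was below the background limit on each monocyte array. All 3 chains thus stood far apart between the cells, C1qa by 8.44 ± 0.25 (adjusted p = 6e-12), C1qb by 6.73 ± 0.27 (adjusted p = 1.24e-10) and C1qc by at least 238-fold (adjusted p = 3.43e-14). C4b, which C1 cleaves next, was higher by 6.42 ± 0.33 (adjusted p = 1.47e-09), and its partner C2 by 4.20 ± 0.27 (adjusted p = 1.97e-08). C3, the component on which the pathways meet, was the exception. C3 read 2.22, 1.22, 1.11 and 1.26 in the macrophages and 4.09, 3.61, 4.05 and 3.70 in the monocytes (-2.41 ± 0.27, adjusted p = 7.58e-06). The receptors for the released fragments were higher, C3ar1 by 5.34 ± 0.18 (adjusted p = 2.85e-11) and C5ar1 by 3.91 ± 0.37 (adjusted p = 1.26e-06). Fcna, a lectin that starts the cascade, was at least 44.2-fold higher (adjusted p = 8.52e-10).

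Efferocytosis, the uptake of dying cells, had 9 of 25 genes higher, 3 lower and 13 not called, with a median of 0.20. With the replicate as a block 5 were lower. Next to Mertk stood its bridging ligand Gas6, at 4.89, 4.78, 5.08 and 4.49 in the macrophages and 0.80, 0.82, 0.30 and 1.24 in the monocytes (4.02 ± 0.21, adjusted p = 1.87e-09). Timd4, a receptor for phosphatidylserine, was at least 6.69-fold higher (adjusted p = 1.48e-09). Lower were the lipoprotein and phosphatidylserine receptor Scarb1 (-2.74 ± 0.30, adjusted p = 7.68e-06), the inhibitory receptor Cd300lf (-1.56 ± 0.31, adjusted p = 0.00189) and Lrp1, a large endocytic receptor (-0.88 ± 0.23, adjusted p = 0.011, and 0.0928 with quantile normalization). Scarb1 read 1.20, 0.30, 1.21 and 0.84 against 3.46, 3.64, 3.78 and 3.62. Over all genes tested 11.4% were lower, so 3 of 25 is near that share and is not read as a result about uptake receptors.

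Among chemokine ligands, the proteins that draw other white cells, 16 of 22 were called higher, 1 lower and 5 in neither direction, with a median of 2.01 (1.51 with bounds). Ccl12, a ligand of CCR2, read 3.11, 3.05, 2.58 and 1.86 in the macrophages and was not well above background in the monocytes (at least 55.3-fold, adjusted p = 1.53e-10). Cxcl16, which binds CXCR6 on T cells, was at least 65.5-fold higher (adjusted p = 1.49e-10). Ccl8 spread widely over the macrophage arrays, at 4.08, 2.72, 3.28 and 1.76, and was well above background on 1 monocyte array (6.74 ± 0.62, adjusted p = 1.04e-06). Ccl4, which draws monocytes and T cells, read 3.48, 3.30, 3.10 and 2.15 against -3.51, -3.17, -2.00 and -4.73 (6.36 ± 0.49, adjusted p = 1.51e-07). For Ccl12, Ccl8 and Ccl4 the lowest macrophage array was that of replicate 4. Pf4, known from platelets and also made by heart macrophages, was higher by 5.49 ± 0.33 (adjusted p = 1.05e-08). Ppbp, a chemokine of platelets, was the member called lower (-2.09 ± 0.56, adjusted p = 0.014, and 0.574 with slides 1 and 3 only). It is also a member of the platelet and red cell list given below.

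Growth factors and matrix genes went both ways. Of 31 tested, 18 were called higher, 6 lower and 7 in neither direction, with a median of 1.36 (0.83 with bounds), and 11 were higher with normexp. Pdgfa, a growth factor for fibroblasts, read 2.92, 2.41, 2.83 and 2.32 in the macrophages and -2.24, -2.51, -1.92 and -1.88 in the monocytes (4.76 ± 0.22, adjusted p = 5.19e-10). Sparc, a collagen-binding matrix protein, was higher by 5.42 ± 0.50 (adjusted p = 1.07e-06). Mmp12, the macrophage elastase, was at least 16.9-fold higher (adjusted p = 8.01e-07). On the other side stood Fn1, the matrix protein fibronectin. Fn1 read 4.74, 4.37, 4.66 and 4.18 in the monocytes and was not well above background on any macrophage array, at least 288-fold lower (adjusted p = 4.5e-09). Plaur, the receptor of the plasminogen activator urokinase, was at least 11.7-fold lower (adjusted p = 6.42e-07), while urokinase itself, Plau, was higher by 2.13 ± 0.50 (adjusted p = 0.00572, and 0.0949 with normexp). The collagenase Mmp8 (-5.99 ± 0.90, adjusted p = 0.000148) and the proteoglycan Vcan (-4.35 ± 0.66, adjusted p = 0.00017) were lower. The growth factor Tgfb1 was lower too (-1.01 ± 0.21, adjusted p = 0.00243).

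Genes of Ly6c-high monocytes were lower in 21 of the 23 tested, higher in 0 and not called in 2, with a median of -4.35 (-4.17 with bounds). This list too was drawn up with these cells in view. Plac8, a small cysteine-rich protein, had the largest difference of the genes measured in both cells. Plac8 read -2.65, -2.21, -1.67 and -2.20 in the macrophages and 6.63, 6.15, 6.38 and 6.06 in the monocytes (-8.49 ± 0.56, adjusted p = 2.39e-08). Chil3, a chitinase-like protein, differed by -7.87 ± 0.66 (adjusted p = 3.29e-07), the haemoglobin binder Hp by -7.43 ± 0.45 (adjusted p = 9.39e-09) and the aspartic protease Napsa by -7.22 ± 0.53 (adjusted p = 8.28e-08). Hp, the ligand side of the Cd163 pair, was thus high where Cd163 was low. Not called were F13a1, given above, and F10, coagulation factor X, for which 2 probes disagreed, at 0.04 on the brighter and -8.23 on the other. Of 11 genes of Ly6c-low monocytes 6 were lower, 1 higher and 4 not called, with Treml4 at -4.81 ± 0.36 (adjusted p = 8.59e-08) and Ace, the angiotensin-converting enzyme, at -2.67 ± 0.21 (adjusted p = 1.43e-07). The member called higher was the fatty acid receptor Cd36 (2.22 ± 0.36, adjusted p = 0.000288).

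Other genes that set the monocytes apart lay outside these lists. The haematopoietic factor Nfe2 (-5.98 ± 0.71, adjusted p = 1.45e-05), the cell cycle factor E2f2 (-5.07 ± 0.39, adjusted p = 1.33e-07), the glycogen phosphorylase Pygl (-5.55 ± 0.48, adjusted p = 5.3e-07) and the heparan sulfate cutter Hpse (-5.01 ± 0.47, adjusted p = 1.05e-06) were lower in the macrophages. The ribonuclease Ear2 was at least 152-fold lower (adjusted p = 1.82e-12) and the related Ear1 was lower by 5.96 ± 0.31 on the log2 scale, though their probes may not tell such close relatives apart. The protease inhibitor Slpi read 2.31, 2.26, 2.70 and 1.73 in the monocytes and was at least 61-fold lower in the macrophages (adjusted p = 2.8e-08). In the other direction, the tetraspanins Cd81 (at least 148-fold, adjusted p = 8.57e-11) and Cd63 (at least 82.9-fold, adjusted p = 2.85e-11) and the organic anion carrier Slco2b1 (at least 87.2-fold, adjusted p = 7.61e-11) were read on all 4 macrophage arrays and on none of the monocyte arrays. Cd81 read 4.31, 4.00, 4.46 and 3.76 there. The metal-binding metallothioneins were higher too, Mt1 by 5.29 ± 0.25 (adjusted p = 7.9e-10) and Mt2 at least 60.7-fold (adjusted p = 1.11e-08). Pmp22, a myelin membrane protein also made outside nerves, was higher by 5.97 ± 0.22 (adjusted p = 4.71e-11). Retnla, a secreted protein of alternatively activated macrophages, was higher by 5.58 ± 0.59 (adjusted p = 4.49e-06), with monocyte arrays from -5.11 to -1.21.

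Receptors for trafficking and adhesion were lower in 10 of 27 genes, higher in 5 and not called in 12, with a median of -0.40. With the replicate as a block 8 were higher. The integrin chains Itgal (-3.93 ± 0.27, adjusted p = 4.23e-08) and Itgb7 (-3.59 ± 0.18, adjusted p = 1.14e-09) were lower, and Itga9 was at least 21.3-fold higher (adjusted p = 5.17e-09). Itgal, the CD11a chain of LFA-1, read 0.88, 0.55, -0.24 and 0.80 in the macrophages and 4.24, 4.41, 4.63 and 4.42 in the monocytes. The fractalkine receptor Cx3cr1, at 3.52 to 4.61 in the macrophages and 4.00 to 4.60 in the monocytes, was not called (-0.40 ± 0.36, adjusted p = 0.534). S1pr1, a receptor by which cells leave tissues for the blood, was at least 11.6-fold higher (adjusted p = 1.56e-08).

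Calcium-binding S100 and granule proteins were lower in 9 of 15 genes, higher in 0 and not called in 6, with a median of -1.88. S100a6 read 0.83, 0.64, 1.07 and 0.17 in the macrophages and 4.36, 4.22, 4.40 and 3.92 in the monocytes (-3.55 ± 0.26, adjusted p = 7.69e-08). S100a4 differed by -2.87 ± 0.26 (adjusted p = 7.85e-07) and the peptidoglycan binder Pglyrp1 by -5.65 ± 0.51 (adjusted p = 7.18e-07). Pattern recognition and inflammasome genes, the sensors of microbes, were lower in 12 of 34, higher in 4 and not called in 18, with a median of -0.39. Mefv, which encodes the sensor pyrin, read -1.03, -0.50, -0.57 and -0.75 in the macrophages and 3.48, 3.46, 3.62 and 3.34 in the monocytes (-4.19 ± 0.28, adjusted p = 3.06e-08). The glycolipid receptor Clec4e was at least 7.52-fold lower (adjusted p = 4.62e-08) and the receptor Trem3 at least 13.3-fold lower (adjusted p = 5.9e-07). Higher in the macrophages were Cd14, the co-receptor for bacterial lipopolysaccharide, and the cytokine Il1b. Il1b read 2.79, 2.73, 3.01 and 2.76 against 0.00, -0.18, 0.58 and 0.30 (2.65 ± 0.21, adjusted p = 1.86e-07). Cd14 read 3.28, 3.12, 2.98 and 3.15 against 1.22, -1.01, -1.26 and -0.65, with monocyte replicate 1 apart from the other monocyte arrays (3.56 ± 0.41, adjusted p = 1.21e-05).

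Genes of iron and heme handling were higher in 10 of 20, lower in 2 and not called in 8, with a median of 0.56, and 6 were higher with median scaling or in a fit to the 8 arrays only. Besides Cd163, ceruloplasmin, Cp, the ferroxidase that readies iron for export, was at least 24.9-fold higher (adjusted p = 2.85e-11). Cp read 1.64, 1.65, 1.37 and 1.35 in the macrophages. The biliverdin reductase Blvrb was higher by 2.42 ± 0.27 (adjusted p = 9.3e-06), and Bach1, the repressor of heme-responsive genes, lower by -0.97 ± 0.20 (adjusted p = 0.00221). Lipid handling genes went both ways, with 6 of 32 higher, 8 lower and 18 not called (median -0.27). The cholesterol exporter Abca1 exceeded monocytes at least 16.3-fold (adjusted p = 2.29e-08), the oxysterol enzyme Ch25h at least 9.64-fold (adjusted p = 7.18e-07). Apoc2, the activator of lipoprotein lipase, read 0.10, -0.24, -0.37 and -0.27 in the macrophages and 4.44, 3.75, 4.68 and 4.39 in the monocytes (-4.51 ± 0.22, adjusted p = 1.02e-09). Apoc1 was lower as well (-2.08 ± 0.41, adjusted p = 0.00161).

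Of 45 lysosome genes 12 were higher, 4 lower and 29 not called, with a median of 0.28. These counts moved with the processing, to 19 higher and 7 lower with the replicate as a block, 18 and 2 with quantile normalization and 7 and 1 with median scaling. Ctsl, the protease cathepsin L, was higher by 2.46 ± 0.42 (adjusted p = 0.00047), while the sphingolipid activator Psap was lower by -0.74 ± 0.21 (adjusted p = 0.0192, and 0.185 with quantile normalization). The Psap call was lost under 9 of 21 other settings. Atp6v0d2, a subunit of the proton pump, was raised at least 2.75-fold (adjusted p = 1.07e-06), while another subunit, Atp6v1b2, was lower by -2.08 ± 0.48 (adjusted p = 0.00536).

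Transcription factors of myeloid cells were higher in 10 of 37, lower in 9 and not called in 18, with a median of -0.04. Maf, a factor of resident macrophages, read 3.43, 3.05, 2.66 and 2.76 in the macrophages and -0.80, -1.03, -0.74 and -0.54 in the monocytes (3.75 ± 0.24, adjusted p = 2.07e-08). Myc (3.84 ± 0.45, adjusted p = 1.32e-05), Id3 (2.03 ± 0.30, adjusted p = 0.000151) and Runx1 (2.02 ± 0.21, adjusted p = 4.26e-06) were higher. The retinoic acid receptor Rara read -0.72, -1.04, -0.16 and -0.79 against 2.66, 2.16, 2.47 and 2.27 (-3.07 ± 0.27, adjusted p = 4.75e-07). Bhlhe40 (-2.65 ± 0.38, adjusted p = 9.23e-05), Nfil3 (-2.63 ± 0.31, adjusted p = 1.6e-05) and the granulocyte factor Cebpe (-1.64 ± 0.35, adjusted p = 0.00282) were lower.

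Of 16 Fc receptor and signalling genes 4 were higher, 3 lower and 9 not called. Their median was -0.15, but 0.14 with quantile normalization. The neonatal Fc receptor Fcgrt was higher by 3.13 ± 0.27 (adjusted p = 4.21e-07), and the phosphatase Ptpn6 lower by -0.61 ± 0.19 (adjusted p = 0.0317, and 0.284 with quantile normalization). Of 11 genes of CSF signalling 1 was higher, the ligand Csf1 (1.31 ± 0.38, adjusted p = 0.0209, and 0.278 with normexp), 1 lower, the shared receptor chain Csf2rb (-1.11 ± 0.19, adjusted p = 0.000561), and 9 not called. That share of 18.2% called is near the 21.4% over all genes and is not read as a result about CSF signalling. The calls of Ptpn6 and Csf1 were each lost under 8 of 21 other settings. In the Ms4a family of membrane proteins 5 of 9 were lower, 1 higher and 3 not called. The member called higher, Ms4a7, read 4.18, 3.70, 3.55 and 3.29 in the macrophages and -0.79, -0.85, -0.12 and -1.38 in the monocytes (4.46 ± 0.28, adjusted p = 1.24e-08). Its relative Ms4a8a was lower by -2.56 ± 0.37 (adjusted p = 9.49e-05). Of 24 interferon-stimulated genes, the antiviral set, 2 were higher, 3 lower and 19 not called, a share of 20.8% against 21.4% over all genes, and 9 were lower with the replicate as a block. Cxcl10 was higher by 3.04 ± 0.43 (adjusted p = 9.29e-05) and the antiviral enzyme Oas3 lower by -2.22 ± 0.29 (adjusted p = 3.27e-05).

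**Figure D4:**
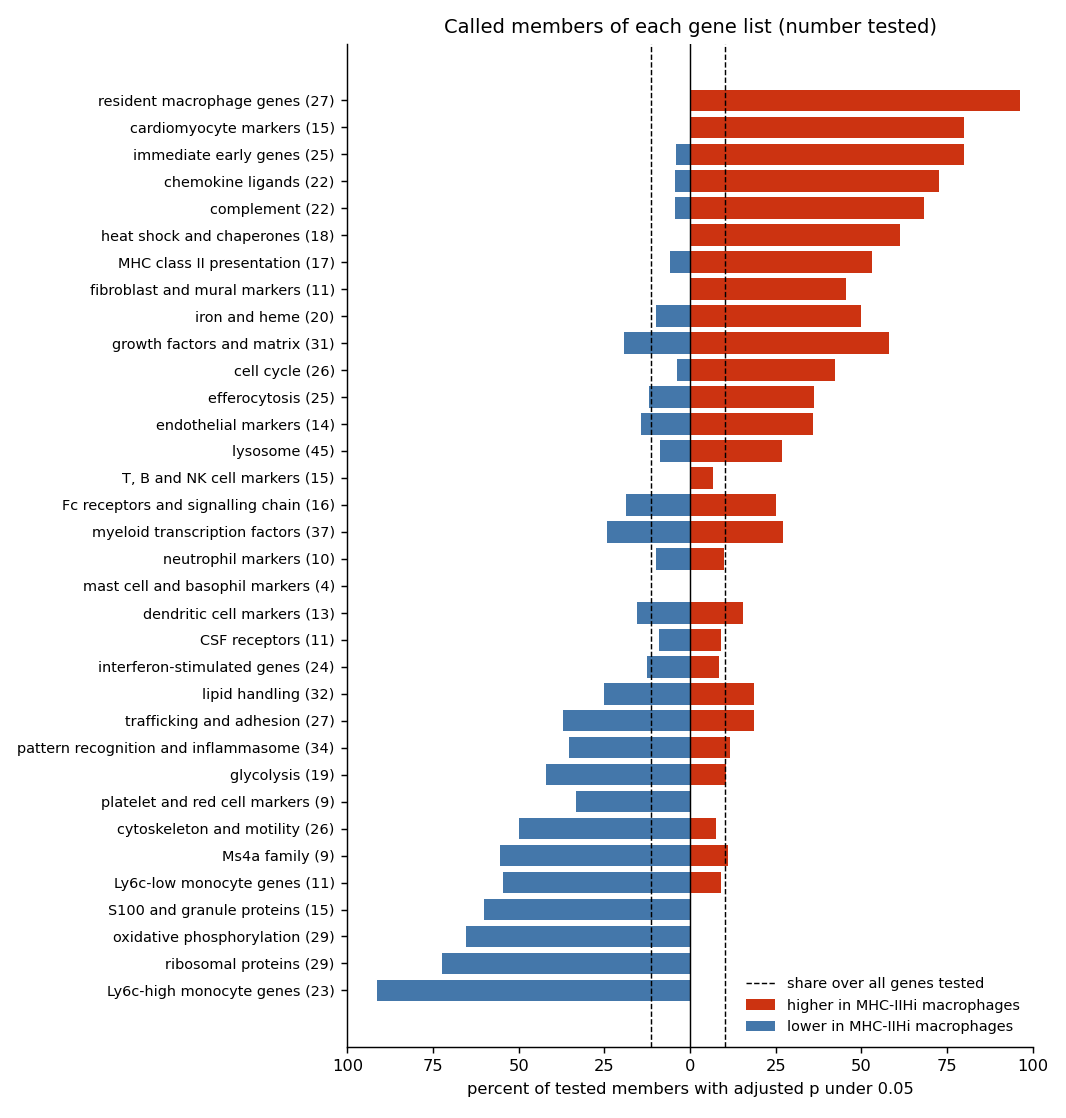
Share of the tested members of 34 gene lists (number tested in brackets) called higher (red, right) or lower (blue, left) in MHC-IIHi macrophages, in percent, ordered by the balance of both. Dashed lines mark the shares over all genes tested, 10 and 11.4 percent; resident macrophage genes (26 of 27 higher) and Ly6c-high monocyte genes (21 of 23 lower) form the ends.

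Immediate early genes, which switch on within minutes of a stimulus, were higher in 20 of 25, lower in 1 and not called in 4, with a median of 2.03. Jun read 5.66, 5.35, 5.92 and 5.35 in the macrophages and 0.59, 0.77, 0.61 and 0.34 in the monocytes (4.99 ± 0.20, adjusted p = 1.13e-10). Fosb (4.94 ± 0.21, adjusted p = 1.66e-10) and Egr1 (5.56 ± 0.25, adjusted p = 4.51e-10) were higher, and Egr2 was at least 10.1-fold higher (adjusted p = 1.14e-09). None of these 4 was called against the mean of the other heart macrophages, with Jun at a mean of 5.20 in CCR2+ and 5.42 in MHC-IIlo macrophages. The member called lower was Nr4a1, at 1.94, 1.78, 1.87 and 1.40 against 2.79, 3.03, 3.25 and 2.24 (-1.08 ± 0.31, adjusted p = 0.0217), a factor on which Ly6c-low monocytes depend. Its adjusted p was 0.0674 without macrophage replicate 4, 0.0559 without monocyte replicate 2 and 0.0719 without monocyte replicate 3. Heat shock genes and chaperones were higher in 11 of 18, lower in 0 and not called in 7, with a median of 0.96, and 8 were higher with median scaling. Hspa1a read 4.66, 4.17, 5.25 and 4.39 in the macrophages and -1.60, -1.83, -1.93 and -0.73 in the monocytes (6.14 ± 0.31, adjusted p = 1.5e-09). Hspb1, a small heat shock protein, varied from -0.45 to 2.58 over the macrophage arrays, with replicate 3 highest, and was at least 13.6-fold higher (adjusted p = 2.02e-05). The hearts were minced and digested before the sort, the labels do not describe the handling of the blood, and the part of handling in these genes cannot be told apart from that of cell type.

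Of 29 ribosomal protein genes 21 were lower, 0 higher and 8 not called, with a median of -0.69, and none passed the 2-fold test. The calls depended on scaling, at 12 with quantile normalization and 17 with median scaling, and were 14 in a fit to the 8 arrays only. Rpl18 read 5.35, 4.92, 5.28 and 4.89 in the macrophages and 6.41, 6.24, 6.58 and 5.99 in the monocytes (-1.19 ± 0.20, adjusted p = 0.000482). Oxidative phosphorylation genes, which make up the respiratory chain, were lower in 19 of 29, higher in 0 and not called in 10, with a median of -0.77, and 11 were lower in a fit to the 8 arrays only. Uqcrfs1, the iron-sulfur subunit of complex III, differed by -1.90 ± 0.24 (adjusted p = 2.89e-05). Glycolysis genes were lower in 8 of 19, higher in 2 and not called in 9. Slc16a3, a lactate exporter, differed by -2.02 ± 0.23 (adjusted p = 1.07e-05). Pgk1 was lower by -2.36 ± 0.59 (adjusted p = 0.00843), but monocyte replicate 1, at 5.86, stood apart from the other monocyte arrays, at 2.03 to 2.60. Without that array Pgk1 differed by -1.47 (adjusted p = 9.45e-05), and in a fit to the 8 arrays only its adjusted p was 0.056, or 0.0646 with the block. Cytoskeleton and motility genes were lower in 13 of 26, higher in 2 and not called in 11, with the focal adhesion protein Vcl at -2.15 ± 0.19 (adjusted p = 4.88e-07) and the actin regulator Coro1a at -1.44 ± 0.21 (adjusted p = 0.000127).

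Cell cycle genes were higher in 11 of 26, lower in 1 and not called in 14, with a median of 0.65. Stmn1, which destabilises microtubules, read 2.73, 2.71, 1.96 and 1.24 in the macrophages and -1.17, -1.13, -2.16 and -2.03 in the monocytes (3.78 ± 0.41, adjusted p = 5.59e-06). The helicase subunits Mcm2 (3.17 ± 0.56, adjusted p = 0.000661) and Mcm6 (1.96 ± 0.33, adjusted p = 0.00039) and the mitotic protein Birc5 (2.51 ± 0.42, adjusted p = 0.000438) were higher. Hmgb2, a chromatin protein, was the member called lower (-1.25 ± 0.40, adjusted p = 0.035), a call that was lost without any of 6 of the 8 arrays. The summed signal of the list, in units of each array's 75th percentile, was 19.7 to 30.9 in the macrophages and 9.82 to 12.4 in the monocytes. Aurkb, Bub1, Bub1b, Ccna2 and Top2a, also on the list, failed the filter on dim probes or stayed below the background limit in both populations. In sorted bulk samples a larger number of dividing cells and more RNA per cell cannot be told apart.

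Markers of other cells of heart and blood differed as well. Of 15 cardiomyocyte markers 12 were higher, 0 lower and 3 not called. Ryr2 failed the filter on dim probes, which asks for at least 4 of 16 arrays well above background, and was not tested. Mb, the oxygen store myoglobin, read 2.27, 1.66, 2.29 and 2.11 in the macrophages and exceeded the monocytes at least 37.3-fold (adjusted p = 3.98e-11), as did the troponin Tnnt2 at least 21.5-fold (adjusted p = 3.07e-10). The summed signal of the list was 31.0 to 42.4 in MHC-IIHi macrophages, 23.0 to 36.2 in CCR2+ macrophages, 28.1 to 40.8 in MHC-IIlo macrophages and 4.21 to 6.48 in monocytes. Of 11 fibroblast and mural markers 5 were higher and 6 not called, with the matrix protein Dcn at least 36.6-fold higher (adjusted p = 8.65e-10), while Dpt, Lum, Pdgfra, Pdgfrb and Postn failed that filter. The sum of the tested fibroblast and mural markers was 8.48 to 15.2 against 4.07 to 5.49. Of 14 endothelial markers 5 were higher, 2 lower and 7 not called, Cdh5 failed that filter, and Egfl7 was higher by 3.17 ± 0.36 (adjusted p = 1.07e-05). The endothelial sum, 9.86 to 15.0 in the macrophages and 49.6 to 65.7 in the monocytes, includes Ly6c1. The part of RNA from these cells in the higher matrix and growth factor genes, such as Sparc and Pdgfa, was not tested.

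Of 9 platelet and red cell markers 3 were lower, Ppbp among them, and 6 not called. The haemoglobin chain Hba-a1 read 3.27, 4.51, 4.29 and 5.44 in the monocytes and 0.64, -1.38, -0.51 and -0.68 in the macrophages (-4.86 ± 0.60, adjusted p = 2.21e-05). The sum of these markers was 13.9 to 49.5 in the monocytes and 4.20 to 5.91 in the macrophages, and Epb42 failed the filter on dim probes. Of 10 neutrophil markers 1 was higher, the gelatinase Mmp9 (adjusted p of 0.0545 with normexp), 1 lower, Mmp8, and 8 not called, and Ltf, Mpo, Ngp and S100a8 failed that filter. Of 13 dendritic cell markers 2 were higher, among them the lectin Clec10a (1.60 ± 0.26, adjusted p = 0.000292), 2 lower, among them the lectin Cd209a (-3.64 ± 0.62, adjusted p = 0.00047), and 9 not called, and Ccl22, Clec9a and Xcr1 failed that filter. The sums of the tested dendritic cell markers were 48.6 to 55.9 in the macrophages and 49.3 to 51.9 in the monocytes. Of 15 markers of T, B and NK cells 1 was higher, Cd4 (2.19 ± 0.28, adjusted p = 3.18e-05, with probes from 0.61 to 2.19), and 14 were not called, with sums of 20.9 to 21.7 in the macrophages and 14.3 to 18.6 in the monocytes. Ms4a1, Gzmb, Klrb1c and Klrd1 failed that filter. The 4 mast cell and basophil markers tested were not called. Over all genes tested 21.4% were called, against 20% of the neutrophil, 30.8% of the dendritic cell and 6.67% of the T, B and NK cell markers. The counts of these lists are therefore not read as results about those cells.

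**Figure D5:**
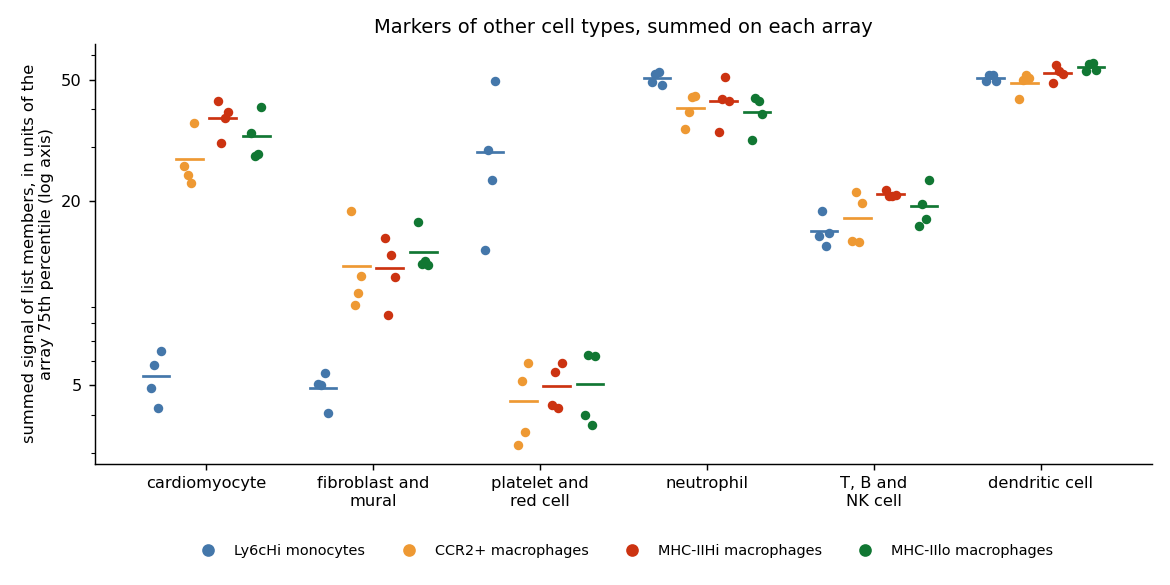
Summed signal of the tested members of 6 marker lists on each array (in units of the array's 75th percentile, log y axis), with blue for Ly6cHi monocytes, orange for CCR2+, red for MHC-IIHi and green for MHC-IIlo macrophages, 4 arrays each, and bars for group means. The cardiomyocyte sums of the 3 heart populations lie between 23.0 and 42.4, above the monocytes at 4.21 to 6.48, and the platelet and red cell sums run the other way.

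Few differences from monocytes were shown to be particular to MHC-IIHi macrophages among the heart macrophages. Against the mean of CCR2+ and MHC-IIlo macrophages, in which the monocytes cancel, limma called 4 genes (0.0183%), 32 with the replicate as a block (0.146%), and 1060 genes had an unadjusted p under 0.05. The genes were Ear2 (adjusted p = 1.56e-06), Fn1 (adjusted p = 0.00363), Pimreg (adjusted p = 0.0143) and Clec4e (adjusted p = 0.0409). Ear2, Fn1 and Clec4e stayed below the background limit on each MHC-IIHi array, so their sizes are bounds. Ear2 read 1.48, 1.38, 1.40 and 0.96 in CCR2+ macrophages, and it was at least 31.7-fold lower in MHC-IIHi macrophages than there (adjusted p = 3.97e-10). Fn1 read 1.57, 1.59, 1.86 and 0.13 in CCR2+ macrophages, at least 31.4-fold above MHC-IIHi macrophages (adjusted p = 2.24e-05), and passed the limit on 2 of 4 MHC-IIlo arrays. Clec4e was at least 3.33-fold lower than in CCR2+ macrophages (adjusted p = 4.5e-05). Ear2 and Clec4e were below the limit in MHC-IIlo macrophages too, and neither they nor Fn1 were called against those.

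Pimreg, a gene of dividing cells that was chosen after its values were seen, read -2.93, -3.76, -5.03 and -4.20 in MHC-IIHi macrophages, where it passed the background limit on 1 of 4 arrays. It read -2.10, -2.00, -1.83 and -1.12 in CCR2+ and -1.46, -1.87, -1.94 and -1.55 in MHC-IIlo macrophages, above the limit on all 8 arrays. It was called against each of these (adjusted p = 0.00371 and 0.0199), but most MHC-IIHi levels are background and the size is not well measured. Pimreg was not called between MHC-IIHi macrophages and monocytes, whose arrays overlapped (1.01 ± 0.35, adjusted p = 0.0504). The calls of Pimreg and Clec4e against the mean of the others were lost with normexp (adjusted p = 0.19 for both), and that of Clec4e with median scaling (adjusted p = 0.0918) and a trended robust fit (adjusted p = 0.0595). The Pimreg call was also lost without MHC-IIHi replicate 2 or 4, and the Clec4e call without MHC-IIHi replicate 1, 2 or 4 or monocyte replicate 4.

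Of the genes called only with the replicate as a block, S100a6 and S100a4 were chosen after their values were seen. S100a6 was lowest in MHC-IIHi macrophages, with arrays at 0.17 to 1.07, against 1.53 to 2.30 in CCR2+ and 1.53 to 2.45 in MHC-IIlo macrophages (-1.28 ± 0.22, adjusted p = 0.0965, or 0.000441 with the block). S100a4 differed by -1.21 ± 0.23 (adjusted p = 0.0965, or 0.00887 with the block). The groups do not overlap for either gene, and both were higher still in monocytes. The adhesion molecule Vcam1 (1.39 ± 0.34, adjusted p = 0.292, or 0.0333 with the block) was also chosen after its values were seen. It was higher than in CCR2+ macrophages by 1.95 ± 0.40 (adjusted p = 0.0225), while its arrays overlapped those of MHC-IIlo macrophages and that difference was not called (0.83 ± 0.40). Vcam1 read 1.43, 0.45, 1.09 and 0.43 in MHC-IIHi macrophages and was not well above background in monocytes (at least 15.9-fold, adjusted p = 3.18e-08). Resident genes such as Folr2, C1qa and Mertk were not called against the mean of the other macrophages (0.55 ± 0.28, 0.18 ± 0.21 and 0.21 ± 0.36). That mean joins populations that differ, since the summed signal of the resident list was 264 to 360 in MHC-IIHi, 148 to 178 in CCR2+ and 385 to 530 in MHC-IIlo macrophages. Folr2 was higher than in CCR2+ macrophages by 1.83 ± 0.33 (adjusted p = 0.00918), and its difference of -0.73 ± 0.33 from MHC-IIlo macrophages was not called.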

How the data were processed

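RNA of 16 samples was hybridised to single-colour (Cy5) Agilent arrays, 4 per population. The deposited intensity values are the processed red signals of Agilent Feature Extraction 11.5.1.1, background-corrected by that software, per the file headers and the submitters' processing notes, which also name Partek. A deposited table of log2 values, made by the authors by steps not given in the sources used here, served only as a check of labels, since 0 of its 16 columns matched its own array best and 12 matched an array of another group. Columns of the scanner files were identified by content, because the headings of the name columns did not match their contents in the 16 files.

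Here log2 signals were taken relative to each array's 75th percentile. Probes well above background on at least 4 of 16 arrays were kept and the brightest kept probe stood for its gene. limma 3.58.1 in R 4.3.3 was fitted to all 16 arrays with 1 mean per group, and p-values were adjusted over 21897 genes. The number of arrays limits the precision. The code was tested on simulated data. Replicate numbers are slides. Same-numbered macrophage and monocyte arrays deviated together from their group means (r = 0.300, 0.345, 0.162 and 0.338), and the numbers were taken to pair the samples. Arrays of slides 1 and 3 and of slides 2 and 4 also deviated together. The r was 0.307 for macrophage 1 with monocyte 3, 0.0669 for 3 with 1, 0.298 for 2 with 4 and 0.297 for 4 with 2. These values do not tell pairing by number apart from a likeness of slides 1 and 3 and of slides 2 and 4. The reported p-values nevertheless come from the fit without a replicate term, unless the block is named. A fit with the replicate as a block was an alternative beside other backgrounds, scalings, filters, probe rules and left-out arrays.

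The text names the sort markers, genes both cells use, the 12 largest differences and 8 largest bounds in each direction, and up to 4 called members of each of 35 lists in each direction. C2, Plau, Tgfb1, Gapdh and the further members of the MHCII list were added after their values were seen. The members and lists were chosen with earlier results of these data known. A few genes are not reported here.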

Additional observations from a re-analysis of the deposited data

Results flagged for a closer look

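In 282 sets of 4 arrays, 1 gene in 1 population each, 17 had an array that stood apart from the other 3 by Dixon's criterion, and chance gives about 1 in 20. In the macrophages these were, as log2 levels, C3 at 2.22, Mcm2 at -0.073 and Pygl at -2.13, all highest in replicate 1, Tnnt2 lowest in replicate 2 at 0.75, Chil3 at -3.86 and H2-Ob at -0.075, lowest in replicate 3, and Egr2 at -0.32 and Timd4 at -0.66, lowest in replicate 4. In the monocytes they were Pgk1 at 5.86 and Mcm2 at -2.07, highest in replicate 1, Gapdh lowest in replicate 2 at 6.21, Ear2 at 4.13, Itgax at 0.39 and Lgmn at 2.26, highest in replicate 3, and Mmp8 at 1.49, Nfe2 at 3.24 and S100a4 at 5.62, lowest in replicate 4.

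Among the genes named, 4 differed between MHC-IIHi macrophages and the mean of the other heart macrophages by limma's test of that difference, Fn1 by -4.01, Ear2 by -3.33, Pimreg by -2.24 and Clec4e by -1.96 on the log2 scale. These are fitted differences and not sizes, because Fn1, Ear2 and Clec4e were below the background limit on all 4 MHC-IIHi arrays and Pimreg on all but 1.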

How the results depend on the processing

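Of the 138 called genes named, 112 kept their call under each of 21 other settings (Trem3 under the 20 in which it was tested). Among the 19 not called, 11 passed under some setting. F10 reversed to -4.09 with the mean of its probes. Counts of genes called in all, higher and lower were 1785, 1049 and 736 with slides 1 and 3 only, a setting added after seeing the data; there 387 genes were past 2-fold higher, 166 past 2-fold lower and 3770 of like level. With normexp 371 were past 2-fold higher and 12815 of like level. With the replicate block 3979 genes were lower. The 4 calls against the other macrophages became 10 with normexp, 20 with quantile normalization, 7 with the mean of probes, 32 with the replicate block, 124 with array weights, 12 with a trended robust fit, 0 with slides 1 and 3 only and 1 with slides 2 and 4 only. Leaving out 1 array gave 3861 to 4463 calls in all, 1905 to 2053 higher, 1897 to 2410 lower, 577 to 626 and 239 to 309 past 2-fold higher and lower, 6799 to 7262 of like level and 2 to 7 against the other macrophages, with 2 without MHC-IIHi replicate 2 or 4 and 7 without monocyte replicate 1. Genes read on all macrophage and no monocyte arrays numbered 414 to 623, with 623 without MHC-IIHi replicate 3, and the reverse 50 to 65; a limit from negative controls gave 119 and 26. With slides 2 and 4 only, also added after seeing the data, 4381 genes were called, 2170 higher and 2211 lower, and 9603 were of like level. The fits to slides 1 and 3 and to slides 2 and 4 hold equally many arrays, so array number does not set them apart. Fits that leave arrays out rest on fewer arrays, and other causes were not tested. Signal over background limits the genes given as bounds.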
